A study of Mus musculus with 8 samples.

Results

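A set of 10 genes of mitochondrial energy supply and fatty acid handling was followed through maps of N6-methyladenosine (m6A) in mouse left ventricle. They were chosen by name, and every peak that carried their gene ID was taken, 24 of the 581 listed peaks. The genes were Atp5b, Ogdh, Cox7a1, Ndufb8, Chchd10, Ckm, Acadl, Acot13, Lpl and Fabp4. Hearts of wild-type C57BL/6 mice were sampled 1 week after surgery, in 4 groups: myocardial infarction (MI), sham operation, MI with aavFto and MI with aavgnp. The names aavFto and aavgnp are not expanded in the labels. They were read as a vector carrying Fto, which encodes an m6A demethylase, and its comparison vector. Both vector groups were infarcted, and no uninfarcted heart received a vector. The sources used here do not give the promoter of the vectors, the number of animals behind each library or their age at surgery. Each group had 1 MeRIP library, made from fragments captured by an anti-m6A antibody, and 1 input library made without that step.

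The heart makes most of its ATP in mitochondria, with fatty acids as its main fuel. Fatty acids are released from lipoproteins at the capillary wall, carried into the cell, bound to coenzyme A and shortened by oxidation in the mitochondrion. The tricarboxylic acid cycle and the respiratory chain then feed ATP synthase, and creatine kinase passes the phosphate on to the contractile machinery. m6A is placed on adenosines of messenger RNA, often around the stop codon and in the 3′ part of the transcript, and affects RNA stability and translation.

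For each peak the authors' deposited table of a comparison gave a fold enrichment of MeRIP over input, an enrichment p, a log2 change between the groups, and a p and false discovery rate (FDR) of that change. The change was read as MI over sham and as aavFto over aavgnp, as the tables' names order them, since no header states its sign. With the opposite reading every direction of the table would turn. With 1 library of each kind per group there was no replicate error to set a difference against, and the p-values of the authors compare single libraries. Read depth per library is unknown. In tissue libraries a change in methylation, in transcript level and in the share of a cell type cannot be told apart, nor can fewer cells of a type and less RNA per cell. Cardiomyocyte markers were represented, with listed peaks for 10 of 10 in the aavFto table and 3 of 10 in the MI table.

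The MI table held 10 member peaks in 8 genes, of 116 peaks in 77 named genes, and Ckm and Acadl were not listed in it. The aavFto table held 14 member peaks in 9 genes, of 465 peaks in 271 named genes, and Lpl was not listed in it. Of the 10 genes, 7 were in both tables. None of the member peaks passed an FDR of 0.05 in the authors' test in either table, whereas 14.7% of all peaks did in the MI table and 1.72% in the aavFto table. At an unadjusted p under 0.05 the count was 0 of 10 in the MI table, against 25.9% of all its peaks, and 1 of 14 in the aavFto table, against 4.3%. No change below therefore counts as called, and signs and sizes are descriptions of the libraries. An FDR of 0.74 was shared by 66 of the 116 MI peaks (56.9%), and by 9 of the 10 member peaks there. One of 0.71 was shared by 443 of the 465 aavFto peaks (95.3%), with all 14 members. With aavFto this value does not set the members apart from the rest. After MI the members held it more often than the listed peaks in general, and this difference was not tested.

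The signs of the member peaks were mixed after MI and mostly positive with aavFto. After MI 5 of the 10 member peaks had a positive log2 change, in a table where 84.5% of all peaks did, and their median was -0.13 against 1.92 over all peaks. All 116 peaks of that table had an absolute log2 change of at least 1, so the median of -0.13 falls in a gap between member values of -1.33 and 1.07 and does not stand for small changes. With aavFto 28.2% of the listed peaks had a change of that size, so the medians of the 2 tables are not alike in kind. With aavFto 9 of the 14 were positive, in a table where 32.7% were, and their median was 0.74 against -0.61 over all peaks. The 11 aavFto peaks of the energy genes (Atp5b, Ogdh, Cox7a1, Ndufb8, Chchd10 and Ckm) were positive in 9 cases. The 3 peaks of the fatty acid genes Acadl, Acot13 and Fabp4 were all negative there, as were 67.3% of all listed peaks. After MI the energy genes had 3 positive and 4 negative peaks, and the fatty acid genes Acot13, Lpl and Fabp4 had 2 positive and 1 negative. Of the 14 aavFto peaks 4 belonged to Atp5b, so the count of peaks leans on that gene, and by gene the split was 5 positive and 4 negative. Counted by peak, cardiomyocyte markers were also mixed after MI and mostly positive with aavFto, but few genes carried these counts. After MI 2 of their 6 peaks were positive and 4 negative, the latter 3 of Mybpc3 and 1 of Myh6. The authors' deposited table had 1 past the FDR, Myh6, at -2.56 (FDR 0.027). With aavFto 14 of their 21 peaks were positive, 5 of them in Myh6. They held 5 of the 8 peaks past the FDR in that table, in Tnnt2, Myl2, Myh6 and Mybpc3. By largest change per gene, 1 marker was positive and 2 negative after MI. With aavFto 7 were positive and 3 negative, namely Ttn, whose 5 peaks were all negative, Ryr2 and Actn2. The part of cardiomyocyte RNA in the signs of the energy genes was not tested.

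**Figure D1:**
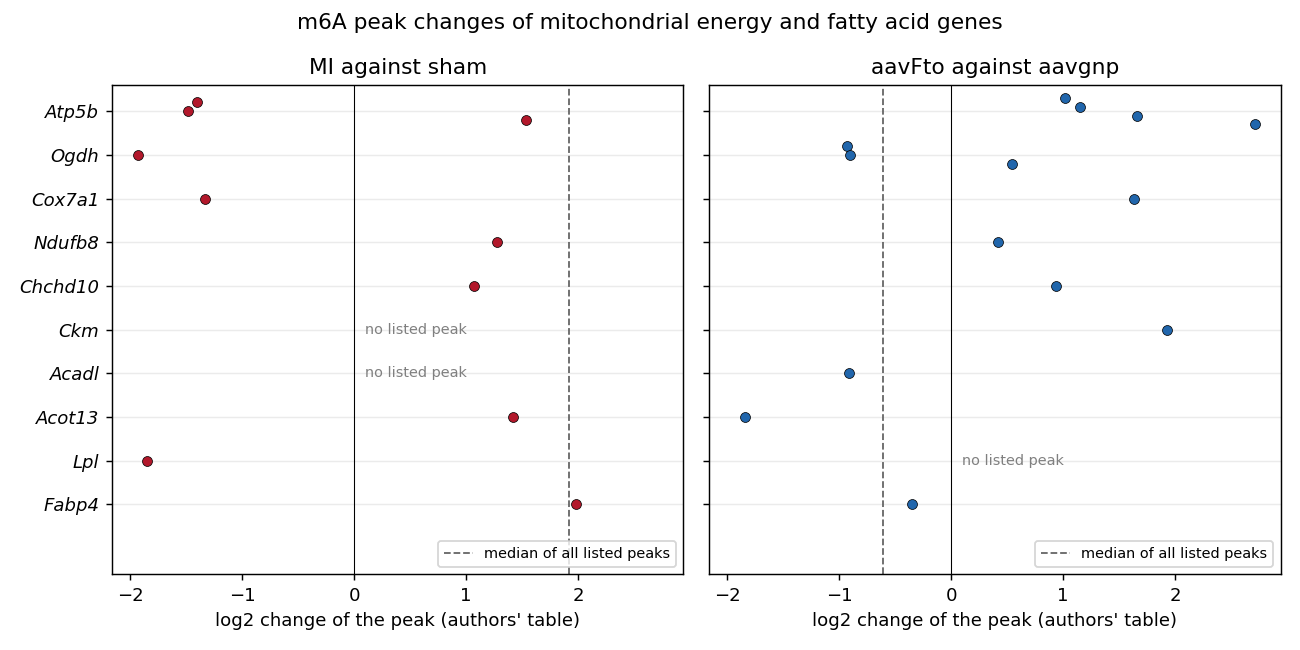
Each point is 1 listed peak, with its log2 change on the x axis and the gene on the y axis, peaks of a gene running 5′ to 3′ from top to bottom. The dashed line is the median of all listed peaks, 1.92 in MI against sham and -0.61 in aavFto against aavgnp, and the 4 Atp5b peaks of the aavFto comparison all lie right of 0.

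Atp5b, which encodes the catalytic beta subunit of mitochondrial ATP synthase, had the most peaks of the 10 genes in each table. Its gene (ID 11947) spans chromosome 10 from 128083307 to 128090388 on mm10, on the plus strand. With aavFto the 4 peaks became more positive from the 5′ to the 3′ end in the authors' deposited table, at 1.02, 1.15, 1.66 and 2.71 on the log2 scale. The last of these, at 128088962 to 128090150, had the highest change of all 465 peaks in that table, with a p of 0.0355 and an FDR of 0.71, and was the 1 member peak with an unadjusted p under 0.05. It ended 238 nt before the annotated 3′ end. In the authors' deposited table the fold enrichment of the 4 peaks was 94.8, 37.9, 18.9 and 20.1 in the same order. The peak nearest the 5′ end was thus the most enriched, and the most 3′ peak, with the largest change, was among the least enriched. A linear ratio of 6.54 corresponds to the log2 change of 2.71, and 2.03 to that of 1.02.

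After MI the 3 Atp5b peaks did not share a sign. The authors' deposited table gave -1.40 (p 0.19) for a peak of 4 blocks at 128083983 to 128085590, and -1.48 (p 0.32) for a peak of 3 blocks at 128086120 to 128088419. The most 3′ peak, at 128088962 to 128090179, stood at 1.54 (p 0.19) in the authors' deposited table. The FDR was 0.74 for all 3 in the authors' test. Their fold enrichments were 111, 62.7 and 124 from 5′ to 3′ in the authors' deposited table, and by enrichment p they ranked 24, 22 and 11 of the 116 peaks. The most 3′ peak was therefore positive in both comparisons, and the regions 5′ of it were negative after MI and positive with aavFto. Their blocks added up to 1195 nt in the MI table and 1107 nt in the aavFto table, and the number of m6A sites within them was not analysed here. The snoRNA gene Snord59a and the miRNA gene Mir677 lie inside the span of the Atp5b peaks, but in gaps between their blocks, with 0 nt of overlap.

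**Figure D2:**
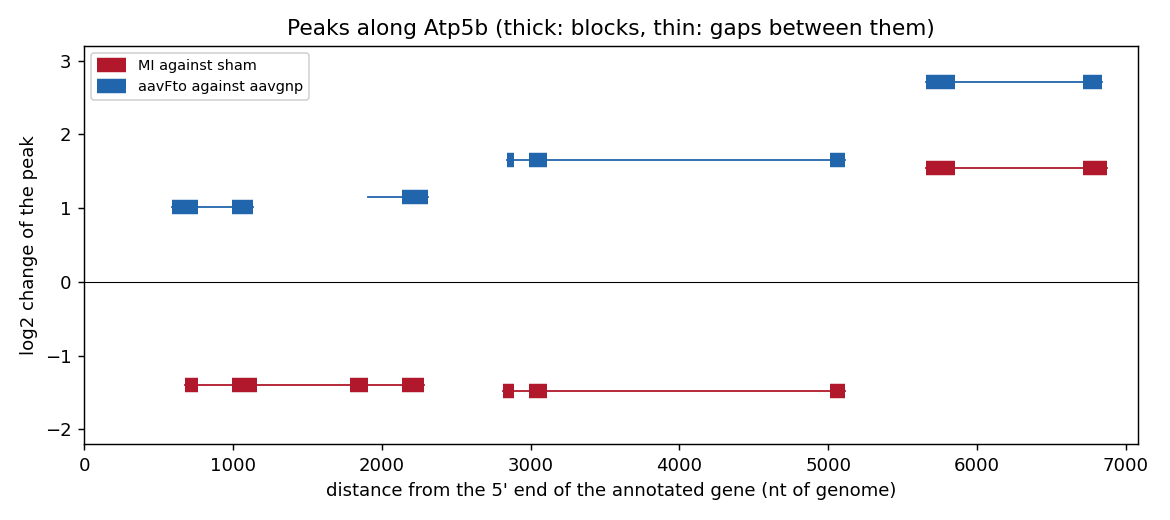
The x axis is the distance from the 5′ end of the annotated Atp5b gene in nucleotides of genome, and the y axis the log2 change. Thick bars are the blocks of a peak and thin lines the gaps between them; the aavFto peaks step up from 1.02 to 2.71 from left to right, and the MI peaks stand at -1.40, -1.48 and 1.54.

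Ogdh encodes the substrate-oxidising subunit of the 2-oxoglutarate dehydrogenase complex of the tricarboxylic acid cycle. Its gene (ID 18293) spans chromosome 11 from 6291597 to 6359094 on the plus strand, and all its peaks lay in the last part of that span, with centres at 84.9% to 95.6% of it. After MI the peak at 6352192 to 6355420 had a log2 change of -1.93 (p 0.20, FDR 0.74) and a fold enrichment of 79.7 in the authors' deposited table. It was the most negative member peak after MI and the fourth lowest of the 116 peaks. With aavFto an overlapping peak, at 6352192 to 6355588, stood at -0.91 (p 0.27) in the authors' deposited table. Ogdh was thus negative in both comparisons at the region both tables listed. Its 2 other aavFto peaks, upstream at 6348664 to 6349134 and downstream at 6356067 to 6356217, had log2 changes of -0.93 (p 0.57) and 0.54 (p 0.62) in the authors' deposited table.

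Cox7a1 encodes the heart and skeletal muscle isoform of a cytochrome c oxidase subunit, the last complex of the respiratory chain. The gene (ID 12865) is short, from 30184171 to 30186030 on chromosome 7, plus strand. Its peak had 3 blocks and 170 nt in each table, and 142 nt were common to both. With MI the peak, at 30185122 to 30185946, stood at -1.33 (p 0.35, FDR 0.74) in the authors' deposited table. With aavFto, at 30185094 to 30185918, it stood at 1.63 (p 0.28, FDR 0.71) in the authors' deposited table. The sign thus turned between the comparisons at nearly the same place. The fold enrichment was 24.8 in the MI table and 47.6 in the aavFto table.

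Ndufb8 encodes an accessory subunit of respiratory complex I. Its peak lay near the 5′ end, at 16.1% of the gene span in the MI table and 15.9% in the aavFto table, on chromosome 19 from 44553697 to 44554978 and to 44555007, minus strand. The first Atp5b peak, at 20.9% in the MI table and 12.2% in the aavFto table, also had its centre in the 5′ part. So did the second Atp5b peak of the aavFto table, at 29.8%, and the Acadl peak, at 26.6%. Apart from Atp5b and Acadl, the other genes had the centre of each peak at 64.0% of the span or beyond. In the authors' deposited tables Ndufb8 stood at 1.28 (p 0.50) after MI and at 0.42 (p 0.65) with aavFto. In the MI table a Col4a1 peak carried the same fold enrichment, 70.8, and the same enrichment p as the Ndufb8 peak.

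Chchd10, a protein of the mitochondrial intermembrane space linked to the cristae, was positive in both comparisons. The authors' deposited table gave 1.07 (p 0.54) for a peak of 90 nt after MI, at 75937375 to 75937584 on chromosome 10, plus strand. With aavFto a peak of 360 nt over 3 blocks, at 75936334 to 75937674, stood at 0.94 (p 0.49) in the authors' deposited table. The shorter MI peak lay entirely inside the blocks of the longer one. Fold enrichments were close, 70.2 in the MI table and 67.7 in the aavFto table.

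Ckm encodes the cytosolic creatine kinase of muscle, which moves phosphate between ATP and creatine. Its 1 peak, in the aavFto table, was the longest of the members, with 1268 nt over 7 blocks on chromosome 7 from 19414125 to 19421495, plus strand. It stood at 1.93 (p 0.0501, FDR 0.71) with a fold enrichment of 90.2 in the authors' deposited table, the eleventh highest change of the 465 peaks. The opposite strand holds the noncoding gene A930016O22Rik, whose 2 listed peaks overlapped the Ckm blocks by 131 and 180 nt. The authors' deposited table gave them log2 changes of -0.38 and 0.55. The sources used here do not say whether reads were assigned by strand, so in that stretch reads of both genes may be mixed.

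Of the genes of fatty acid oxidation, Acot13 encodes a mitochondrial acyl-CoA thioesterase and Acadl the long-chain acyl-CoA dehydrogenase, which acts in the first step of beta oxidation. Both tables listed an Acot13 peak with the same ends, 24818074 to 24818163 on chromosome 13, minus strand, 119 nt before the annotated 3′ end. In the authors' deposited tables it stood at 1.42 (p 0.47) after MI and at -1.84 (p 0.30) with aavFto, the most negative change of the 14 member peaks there. Its fold enrichment was 67.0 in the MI table and 27.3 in the aavFto table. Acadl had a peak of 61 nt in the aavFto table, at 66854635 to 66854695 on chromosome 1, minus strand, which stood at -0.91 (p 0.57) in the authors' deposited table. With an enrichment p of 2.04e-04 it ranked 450 of 465 by strength, and it shared its enrichment values with peaks in Slc16a1 and Tns1.

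Lpl and Fabp4 act before oxidation. Lpl encodes lipoprotein lipase, which frees fatty acids from circulating triglyceride at the capillary wall, and Fabp4 a fatty acid binding protein found in adipocytes, macrophages and capillary endothelium. The Lpl peak of the MI table covered 121 nt at 68906364 to 68906484 on chromosome 8, plus strand, 448 nt before the annotated 3′ end. It stood at -1.85 (p 0.22, FDR 0.74) with a fold enrichment of 23.0 in the authors' deposited table. A peak without a gene ID overlapped it by 115 nt on the same strand and stood at -1.42 (p 0.36) in the authors' deposited table, so both describe 1 region.

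Fabp4 had the member peak with the smallest p after MI. On chromosome 3, minus strand, at 10204518 to 10206115, its 321 nt over 3 blocks stood at 1.98 (p 0.056, FDR 0.37) in the authors' deposited table. With aavFto a peak of 60 nt, at 10204488 to 10204547, stood at -0.35 (p 0.69, FDR 0.71) in the authors' deposited table. The 2 peaks shared 30 nt, which was 9.35% of the MI peak and 50.0% of the aavFto peak, so they describe largely different stretches. Endothelial markers had the same signs as Fabp4, which were also those of most listed peaks, 84.5% positive after MI and 67.3% negative with aavFto. Of 10 endothelial markers 2 were listed in each table. By largest change the authors' deposited tables placed Eng at 2.56 and Cdh5 at 1.65 after MI, and Eng at -0.60 and Cdh5 at -0.69 with aavFto. Of 10 macrophage markers 2 were listed after MI, both positive, and 3 with aavFto, 1 positive and 2 negative. Of 8 fibroblast markers 4 were listed in each table, all 4 positive after MI, and 1 positive and 3 negative with aavFto by largest change. None of 8 adipocyte markers was listed in either table. The part of these cell types in the Fabp4 values was not tested.

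**Figure D3:**
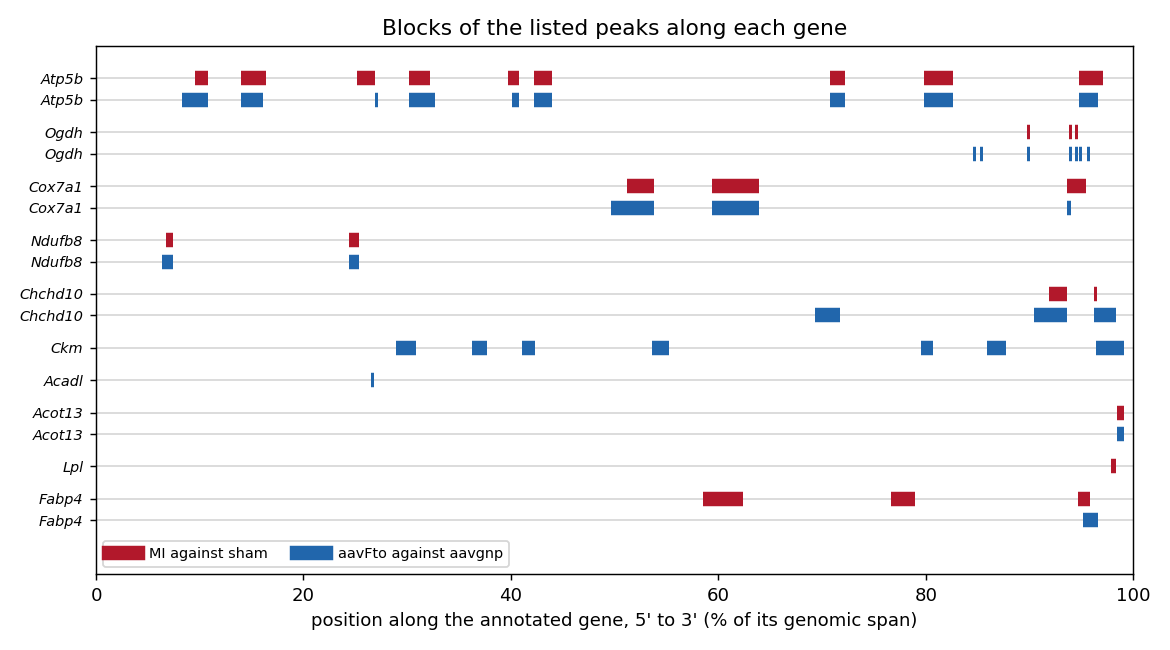
Blocks of the listed peaks along each annotated gene, in percent of its genomic span from 5′ to 3′, with 1 line per gene and comparison; blocks narrower than 0.3% are drawn at 0.3%. Ndufb8 blocks lie near the 5′ end, Atp5b and Ckm blocks are spread along the gene, and the Acot13 and Lpl blocks sit at the 3′ end.

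Peaks of the energy genes were more often split over several blocks than the listed peaks in general. The distance of the member peaks from the 3′ end depended on the measure. After MI 8 of the 10 member peaks had several blocks, against 42.2% of all peaks, and with aavFto 10 of the 14, against 48.0%. Among energy genes these were 7 of 7 peaks after MI and 10 of 11 with aavFto. Fatty acid genes had 1 of 3 and 0 of 3. Atp5b alone gave 3 of the split peaks after MI and 4 with aavFto. Within 500 nt of the annotated 3′ end of the gene lay 6 of the 10 member peaks in the MI table and 6 of the 14 in the aavFto table. Over all peaks with a gene ID that share was 29.5% in the MI table and 22.0% in the aavFto table. The median distance to that end was 328 nt for the members and 1220 nt over all peaks in the MI table, but 2420 nt for the members and 2080 nt over all peaks in the aavFto table. As a share of the gene span the median member centre was less far 3′ in both tables, at 82.8% against 88.4% over all peaks in the MI table and at 77.8% against 83.0% in the aavFto table. Member peaks had a median length of 234 nt in the MI table and 180 nt in the aavFto table, against 150 and 181 nt over all peaks.

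Block number and strength went with the sign in the aavFto table as a whole. Of its peaks with several blocks 44.8% were positive, and of those with 1 block 21.5%. Among member peaks the counts were 8 of 10 with several blocks and 1 of 4 with 1 block. Of all aavFto peaks with an enrichment p smaller than the table's median 52.6% were positive, and of the others 12.9%. Member peaks were positive in 7 of 8 cases above that strength and in 2 of 6 below it. The 3 fatty acid peaks with aavFto, all negative, each had 1 block and lay below that strength, where most listed peaks were negative. Of the 11 energy peaks 10 had several blocks, and the other, of Ogdh, was positive. The 2 positive member peaks below that strength, of Ogdh and Ndufb8, were energy peaks. After MI 72.4% of the stronger and 96.6% of the weaker peaks were positive, against 2 of 6 and 3 of 4 member peaks. Of the 5 negative member peaks after MI 4 were thus above the median strength, and of the 5 with aavFto 1 was. How far block number or strength accounts for the signs of the members was not tested. The same holds for the split between energy and fatty acid genes with aavFto.

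**Figure D4:**
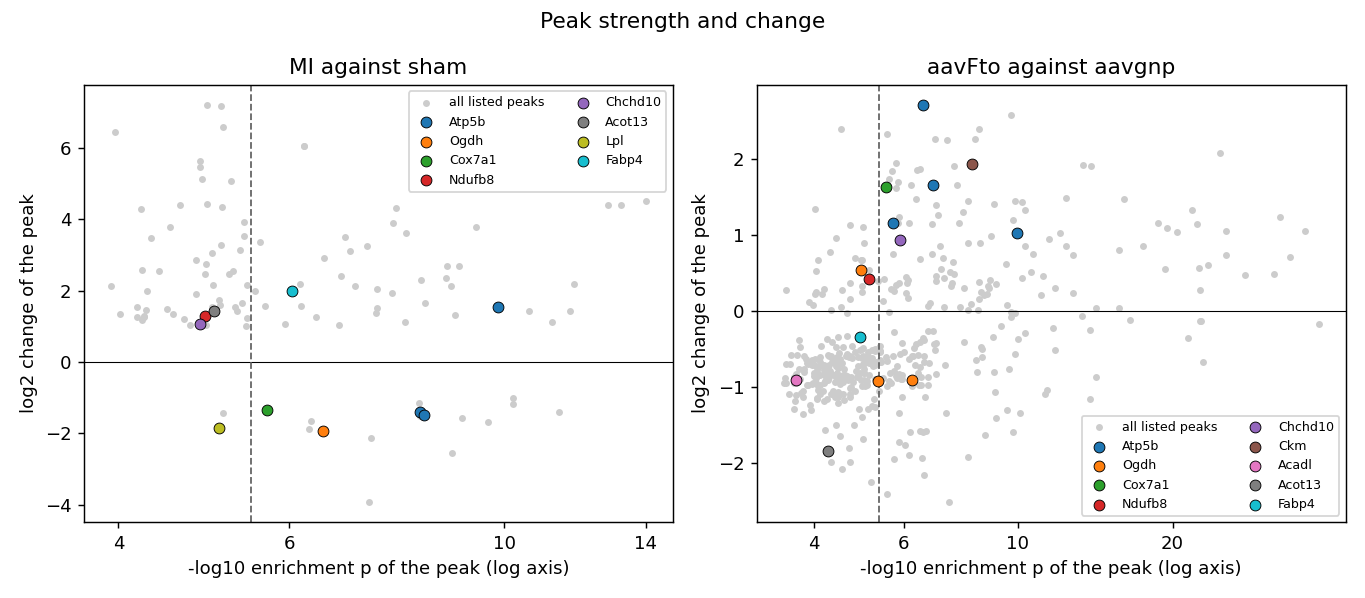
The x axis is -log10 of the enrichment p on a log axis, the y axis the log2 change, grey points are all listed peaks and coloured points the member genes. The dashed line is the table's median strength; in the aavFto panel 7 of the 8 member peaks right of it are above 0, and in the MI panel 2 of 6.

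Nearly all member peaks of the MI table recurred in the other table. Blocks of 9 of the 10 MI peaks overlapped a peak of the same strand in the aavFto table, and blocks of 10 of the 14 aavFto peaks overlapped an MI peak, in 10 pairs. Of all peaks 109 of 116 in the MI list and 97 of 465 in the aavFto list did. The comparisons share no libraries. In 6 of the 10 member pairs the change had opposite signs, against 63.1% of all 122 pairs, so this share was close to the background. In 4 member pairs, 3 of Atp5b and that of Cox7a1, the change was negative after MI and positive with aavFto, and in 2, Acot13 and Fabp4, the reverse. Among the 112 pairs of other genes 13 were of the first kind and 58 of the second. The 4 member pairs of the first kind came from 2 genes, and 2 of the 3 Atp5b pairs shared an MI peak.

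Fold enrichment was lower in the aavFto table than in the MI table for 9 of the 10 member pairs, against 46 of the 112 pairs of other genes. The median ratio of the aavFto value to the MI value was 0.45 for the members and 1.12 for the others. The ratio was lowest, 0.16, at the most 3′ Atp5b peak, and Cox7a1 was the exception at 1.92. At that Atp5b peak the authors' deposited tables gave 20.1 for aavFto against aavgnp and 124 for MI against sham. Several pairs share a peak, and no test of this difference was made. The sources used here do not say how the libraries of each table were scaled, so these ratios set values side by side across tables that may have been scaled separately. Nor do they say whether a fold enrichment pools both groups of its comparison, so it cannot be read as a value of the aavFto or the MI libraries alone.

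**Figure D5:**
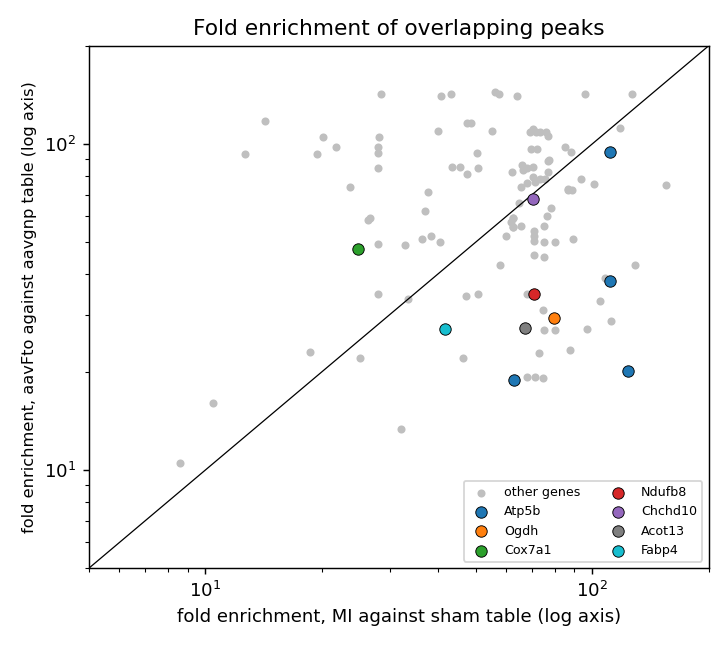
Each point is a pair of overlapping peaks, with its fold enrichment in the MI against sham table on the x axis and in the aavFto against aavgnp table on the y axis, both log axes, and the line marks equal values. Of the 10 coloured member pairs 9 lie below the line, and Cox7a1 lies above it.

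The wider pathway held few other listed genes. Of 150 further genes of the respiratory chain, ATP synthase, the tricarboxylic acid cycle, fatty acid use, creatine kinase and their regulators, 3 were listed in the MI table and 21 in the aavFto table. No peak of theirs had an FDR or an unadjusted p under 0.05 in the authors' tests. After MI all 3 were positive in the authors' deposited table, at 1.42 for Cox6a2, a muscle isoform of a cytochrome c oxidase subunit, and at 1.12 and 1.07 for the complex I subunits Ndufb7 and Ndufb9. Over all named genes 67 of 77 were positive by largest change. With aavFto 9 of the 21 were positive and 12 negative, with a median of -0.46, against 82 positive and 189 negative of all 271 genes, with a median of -0.685.

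Among the most positive of these in the authors' deposited table of aavFto were Ndufb7 at 1.92 (p 0.19) and Atp5g3, which encodes the membrane ring subunit of ATP synthase, at 1.85 (p 0.205). The most negative in the authors' deposited table were Atp5d, another ATP synthase subunit, at -1.13 (p 0.33), Ckmt2, the mitochondrial creatine kinase of striated muscle, at -0.995 (p 0.56), and Ndufa10, a complex I subunit, at -0.72 (p 0.61). Members of the same complex thus had changes of either sign. Of the ATP synthase and nucleotide carrier list 4 of 6 listed genes were positive, of complex I 3 of 5, of complex IV 2 of 4 and of the tricarboxylic acid cycle list 2 of 6, members included. All 3 listed genes of the fatty acid oxidation list, Acot13, Acadl and Etfb, were negative, as were 189 of all 271 named genes. No regulator of the list, such as Ppargc1a or Ppara, had a listed peak in either table.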

How the data were processed

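MeRIP-seq of left ventricle used 200 µg of RNA per group, poly(A) selection and fragmentation before the pulldown, and 50 nt single reads, per the labels' protocols. The submitters' processing notes name the aligner STAR 2.5.3a and the build mm10. The sources used here give no peak caller, thresholds or library scaling. The authors deposited 1 peak table per comparison. Per the file headers it holds an enrichment p-value (the score column), enrichment and differential p and FDR as log10 values, the fold enrichment over input as a linear ratio, and the change between groups on a log2 scale. These log10 values were turned into p and FDR. No p-value was computed here.

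All 10 genes matched by ID in a gene table from RefSeq (GRCm38.p6, the assembly of mm10). That table holds spans without exons, so peaks were not assigned to coding sequence or untranslated regions, and the sequence under the peaks was not analysed here. Coordinates are 1-based. Positions are distances along the gene span. Peaks were paired between tables when their blocks overlapped by at least 1 nt on the same strand. The overlap and position functions were tested on 200 simulated block sets. The members, the roles they were grouped by and the 9 pathway and the marker lists were chosen with earlier results of these data known. All member peaks are named. Of the other pathway genes, the 3 most positive and 3 most negative per table are named, with any whose authors' FDR or p was under 0.05; not every gene so chosen is reported here. Analysis used Python 3.11.15 with pandas 2.3.3.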

Additional observations from a re-analysis of the deposited data

How the results depend on the processing

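Of 24 alternatives, 11 gave the same median, or a count within 1.5 times. Counts were compared without regard to the number of peaks or genes behind them, so this tally does not measure how stable the shares were. After MI the median member change of -0.13 turned to 1.18 with the peak of largest absolute change per gene. It turned to 0.31 when the peaks of a gene were averaged. Only Atp5b had more than 1 peak in the MI table, so both turns came from reducing its 3 peaks to 1 value. With peaks stronger than the table's median enrichment the median was -1.36, with 2 of 6 positive. With aavFto, 1 value per gene (largest change, mean or longest peak) gave 5 of 9 positive and a median of 0.42. There the median was 1.39 for the stronger peaks and 1.63 for changes of at least 1. At an unadjusted p under 0.05 in place of the FDR the aavFto count was 1 in place of 0, the most 3′ Atp5b peak, and the MI count stayed at 0; at an FDR of 0.1 both were 0. The number of shared MI peaks was 9 under all 3 overlap rules. No paired analysis was possible because each group had 1 input and 1 MeRIP library. Depth is unknown, and the tables list selected peaks, so an unlisted gene such as Ckm after MI says nothing of its methylation.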
